A study of Homo sapiens with 8 samples.

Results

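The axon guidance ligands and receptors are the semaphorins of classes 3 to 7, the plexins and neuropilins that bind them, the ephrins and their EPH receptors, the SLITs and ROBOs, and the netrins and UNC5 receptors. They were chosen by gene symbol alone, and 62 of the 14526 genes in the deposited table carry such a symbol. Of these, 61 code for a protein, and the other, SEMA6A-AS1, is an RNA transcribed from the strand opposite SEMA6A whose symbol fits the same pattern. RefSeq lists 70 protein-coding genes with these symbols, and EPHA1, NTN3, NTN5, NTNG1, PLXNA4, PLXNB3, ROBO4, SEMA5A and UNC5D have no row in the table.

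These families were found as cues that steer growing axons, and most of them also act outside the nervous system. Class 3 semaphorins are secreted and signal through plexins, usually with a neuropilin as co-receptor, whereas the other vertebrate semaphorins are mostly anchored to the membrane and bind plexins directly. Ephrin-A ligands hang from a lipid anchor and ephrin-B ligands span the membrane, and both bind EPH receptor tyrosine kinases on a touching cell. SLITs are secreted ligands of ROBO receptors, and netrins are secreted or anchored ligands, of which netrin-1 repels axons that carry an UNC5 receptor. In epithelial and endothelial cells the same pairs take part in cell sorting, migration and vessel branching.

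The samples were 4 control replicates of human cells grown in DMEM with fetal bovine serum and 4 SB-treated replicates that received sodium benzoate (SB), a food preservative, at 10 mM for 24 h before harvest. Both groups carry the label HepG2, a line derived from a human liver carcinoma, and no other genotype or agent was given for either group. The study concerns benzoylation of histone lysines and how it relates to gene expression. Per the methods, the 4 in each group are biological replicates of 1 line. The p-values set the difference between the groups against the spread between these replicates, and do not extend to other lines. Total RNA was sequenced, and the authors deposited RPKM values, that is, reads scaled to the counted length of the gene and to the library size.

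The data go against the label. Of 20 hepatocyte markers, 15 have no row in the table, among them ALB (albumin), AFP (alpha-fetoprotein), APOA1, TTR, SERPINA1 and HNF4A. Among those that have a row, TF was at 0.192 RPKM, FOXA1 at 0.963 RPKM, CYP3A5 at 0.468 RPKM and FOXA3 at 2.06 RPKM on average in control replicates. Whole reads could be recovered from the RPKM values for 100% of the genes and numbered between 36991000 and 44879869 per library. Control replicate 1 stood apart. Its reads differed from those of the other controls by a chi-square of 33.4 to 38.5 per degree of freedom, where all other pairs within a group gave 1.52 to 3.8. Its difference from the other controls followed GC content (Pearson r = -0.733 across 12689 genes of the same libraries, a description), and it was the lowest control for 39 of the 62 members and the highest for 18. The counts over the 62 members and over the gene lists are therefore also given without it and after removal of each library's trend with length and GC content.

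Promoter sequences are shown for the members with the largest rises and falls for which the RefSeq promoter table holds an entry, since the study concerns a histone mark and the sequence before the start differs widely among these genes. Each run is the 150 bases before the start site listed for the gene, on GRCh38.p14, 5′ to 3′ on the strand of the gene, and capitals mark GGGCGG on either strand, the GC box that SP-family factors bind. PLXNA1 and SEMA3C rose with SB, and EFNA1 and SEMA3G fell. The PLXNA1 run, chr3:126982965-126983114 on the plus strand, lies inside the annotated span of the gene and outside its exons. The SEMA3C run is chr7:80922390-80922539 on the minus strand, the EFNA1 run chr1:155127726-155127875 on the plus strand, and the SEMA3G run chr3:52445104-52445253 on the minus strand.
PLXNA1: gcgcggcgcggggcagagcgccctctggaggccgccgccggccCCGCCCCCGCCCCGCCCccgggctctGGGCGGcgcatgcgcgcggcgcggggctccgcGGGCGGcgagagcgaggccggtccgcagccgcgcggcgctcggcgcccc
SEMA3C: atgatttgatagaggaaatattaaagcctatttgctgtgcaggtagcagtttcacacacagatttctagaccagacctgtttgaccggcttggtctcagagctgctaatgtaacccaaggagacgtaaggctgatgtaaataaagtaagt
EFNA1: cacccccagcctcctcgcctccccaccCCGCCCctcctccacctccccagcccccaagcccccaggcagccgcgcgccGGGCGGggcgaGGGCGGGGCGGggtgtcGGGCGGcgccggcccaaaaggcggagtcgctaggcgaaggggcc
SEMA3G: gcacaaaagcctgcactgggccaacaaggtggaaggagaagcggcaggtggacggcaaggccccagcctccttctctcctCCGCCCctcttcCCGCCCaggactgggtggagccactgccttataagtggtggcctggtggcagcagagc

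The PLXNA1 run holds 5 GC boxes and 32 CpG dinucleotides at 89.3% GC, and the EFNA1 run holds 5 boxes and 17 CpG at 81.3% GC. The SEMA3C run holds 0 boxes and 2 CpG at 41.3% GC, and the SEMA3G run 2 boxes and 4 CpG at 64.7% GC. The pair of runs on each side of the comparison thus differed in GC content. Overlapping matches were counted separately. Over the whole 300-base window of the table (250 bases before to 50 after the start), GGGCGG on either strand was present for 40 of the 53 members with an entry (75.5%), against 45.0% of all 35116 promoters and 69.8% of the 10651 promoters of genes in the expression table. It was present for 17 of 19 members that were higher in SB-treated cells, 9 of 16 that were lower and 14 of 18 that were not called. Shares by call over all genes were not computed. The transcripts of members called higher also had a higher median GC content (59.4%) than those of members called lower (49.0%). The E-box CACGTG was in 4 of the 53 (7.55%), against 10.0% of the table's genes, and CCAAT in 18 (34.0%), against 36.4%. TATAAA was in 1 (1.89%), against 5.44%. The motifs were searched on both strands and do not contain one another. These are counts of letters in a window and were not tested.

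In SB-treated cells 23 of the 62 members were higher, 18 lower and 21 not called (limma on log2(RPKM + 1), Benjamini-Hochberg adjusted p below 0.05 over all 14526 genes). Among all genes 33.0% were called higher and 32.6% lower, 65.6% in all, so the 37.1% and 29.0% of members lie near the background. The same shares are the background for the counts by family, which were not tested. Control and SB-treated values were fully apart for 42 members (67.7%), 24 of them higher and 18 lower, against 61.5% of all genes. Changes were small on the log2(RPKM + 1) scale. There the median absolute log2 fold change was 0.23 over the members and 0.20 over all genes. On that scale 6 members (9.68%) were called with an absolute log2 fold change of at least 0.5, against 10.6% of all genes. The median signed value was 0.07 over the members and 0.00 over all genes. These sizes depend on the pseudocount of 1 RPKM, which shrinks changes of low genes most. The median control level was 3.45 RPKM over the members and 8.30 RPKM over all genes. By voom on the recovered reads PLXNB1 (0.89 against 0.45), EPHA6 (0.72 against 0.34) and EFNA2 (0.59 against 0.39) also passed 0.5, while SLIT2 stayed at 0.25. The share of all genes past 0.5 by voom was not compared. In bulk RNA, fewer cells that express a gene and less RNA per cell cannot be told apart.

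The split between directions moved with the processing. Without the TMM factors 32 members were higher and 14 lower, so that 69.6% of the member calls were higher against 56.1% with them. The same step took the share over all genes from 50.2% to 65.1% and their median log2 fold change from 0.00 to 0.08 (log2 ratio without a pseudocount, 0.01 to 0.11). SEMA4A (-0.10, limma adjusted p = 0.0785), EPHA3 (-0.07, adjusted p = 0.140), NTN4 (-0.14, adjusted p = 0.0575) and SEMA7A (-0.09, adjusted p = 0.180) then lost their calls. After removal of the length and GC trend, 18 were higher and 28 lower (39.1% higher, against 48.7% over all genes), and the 18 higher and 18 of the lower ones were those called in that direction before, with 0 in the opposite one. Members called higher had a median GC content of 59.4% and members called lower 49.0%, against 48.5% over all genes. Across 12689 genes the log2 fold change had a Pearson r with GC content of 0.128, and of 0.00735 without control replicate 1. The median counted length was 5683 bases for members and 3340 for all genes. Removing the trend also removes any treatment effect that follows length or GC content, and which of them moved the split was not tested. Without control replicate 1, 26 were higher and 22 lower, with none of the 41 calls lost. By voom on the recovered reads, where no pseudocount of 1 RPKM enters, the calls were 23 and 19 and low members had larger log2 fold changes, such as EPHA10 (0.84 against 0.25), SLIT3 (0.74 against 0.28) and SEMA6D (-0.53 against -0.27). Control replicate 1 was the lowest control for 17 of the 23 members called higher and for 9 of the 18 called lower.

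**Figure D1:**
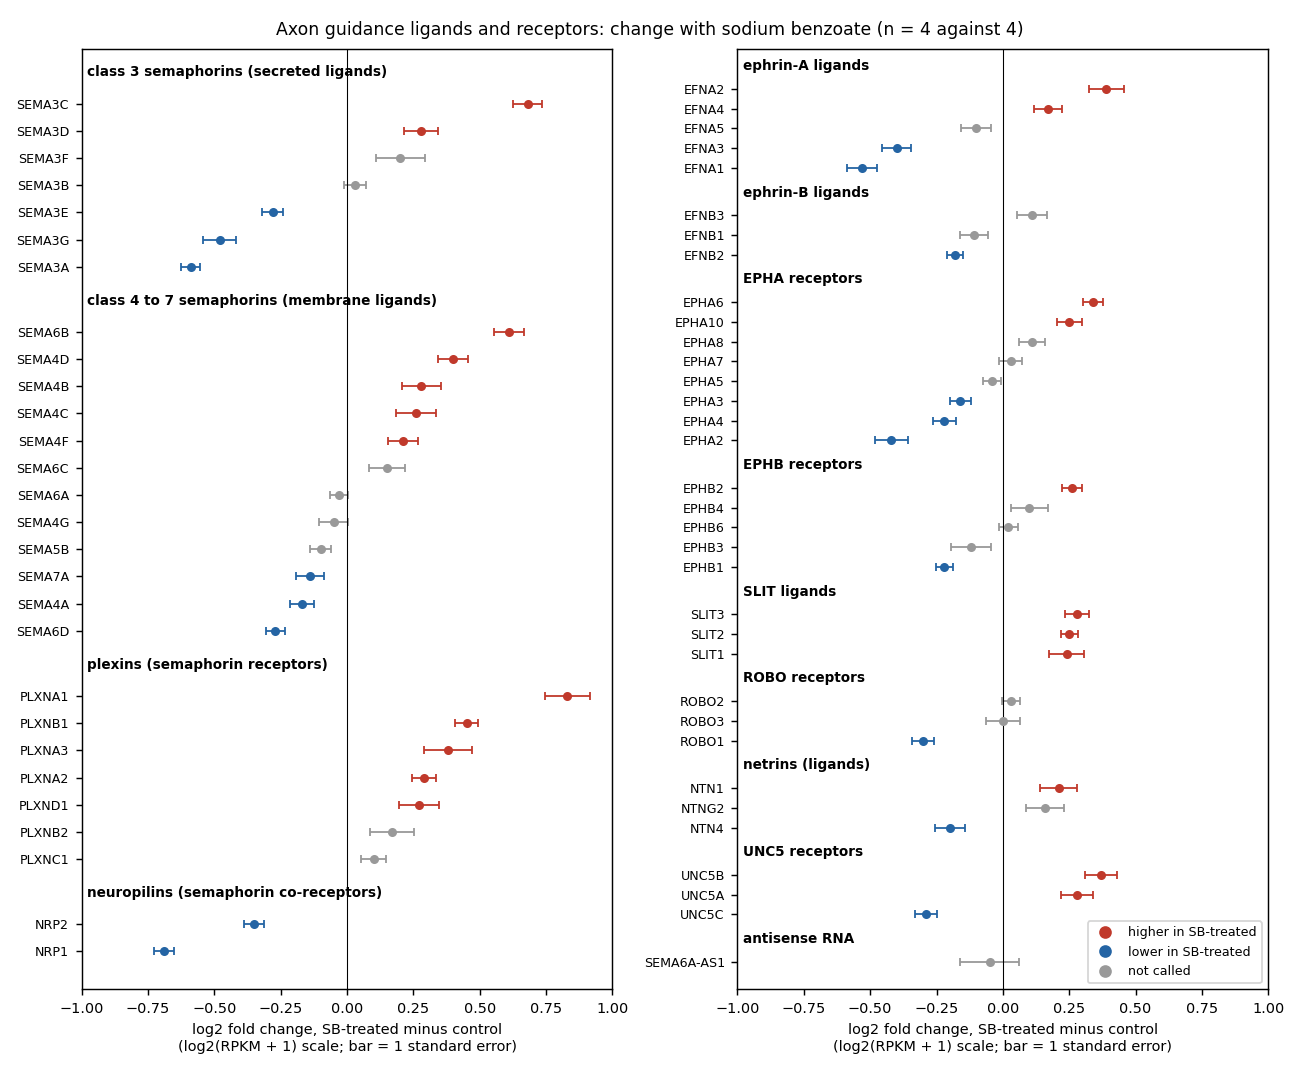
Log2 fold change of each of the 62 members, SB-treated minus control, on the log2(RPKM + 1) scale, with a bar of 1 standard error on each side, grouped by family. Red points were called higher (23), blue points lower (18) and grey points not called (21), and the values run from -0.69 for NRP1 to 0.83 for PLXNA1.

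Among the secreted class 3 semaphorins, SEMA3C and SEMA3D were higher in SB-treated cells, SEMA3A, SEMA3E and SEMA3G were lower, and SEMA3B and SEMA3F were not called. SEMA3C, a ligand that acts through NRP1 and NRP2 and is known from cardiac outflow development, was at 6.12, 5.26, 5.35 and 5.01 RPKM in control replicates 1 to 4 and at 9.72, 8.81, 9.30 and 9.32 RPKM in the SB-treated ones. Every treated value lay above every control value, with means of 5.43 ± 0.478 and 9.29 ± 0.373 RPKM (SD, n = 4 each). The log2 fold change was 0.68 (limma adjusted p = 5.59e-06, standard error (SE) 0.055).

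SEMA3A, the founding repellent of this class, whose signal runs through NRP1 and A-type plexins, moved the opposite way. Its control values were 3.11, 2.80, 2.97 and 3.06 RPKM, and its SB-treated values were 1.73, 1.64, 1.59 and 1.63 RPKM. The groups were far apart, and the mean fell from 2.99 ± 0.136 to 1.64 ± 0.0601 RPKM (log2 fold change -0.59, limma adjusted p = 1.44e-06, SE 0.037). SEMA3G, which is expressed in vessels and binds neuropilin-2, was at 1.84, 2.47, 2.20 and 2.41 RPKM in control and at 1.42, 1.26, 1.31 and 1.26 RPKM after SB. The lowest control was replicate 1, still above the highest treated value, and the log2 fold change was -0.48 (limma adjusted p = 1.05e-04, SE 0.062).

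SEMA3D rose from 3.50 ± 0.463 to 4.45 ± 0.107 RPKM and SEMA3E, which binds PLXND1 without a neuropilin, fell from 1.63 ± 0.125 to 1.16 ± 0.0288 RPKM (limma adjusted p = 0.00342 and 2.08e-04). SEMA3F was at 3.90 ± 0.642 and 4.58 ± 0.353 RPKM (log2 fold change 0.20, adjusted p = 0.0876), with control replicate 1 at 2.95 RPKM and the groups overlapping. SEMA3B was at 1.49 ± 0.110 and 1.55 ± 0.0650 RPKM (log2 fold change 0.03, adjusted p = 0.482). As a sum over the 7 genes the class ranged from 21.0 to 21.4 RPKM in control and from 23.6 to 24.3 RPKM in SB-treated replicates. The share of that sum held by SEMA3C was 25.7% ± 2.06 in control and 38.7% ± 1.35 after SB. SEMA3C, SEMA3E, SEMA3A and SEMA3D lie in this order on chromosome 7 of hg38, between 80742538 and 85187056, so the genes at the ends of the stretch were higher and the middle ones lower.

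Among the membrane semaphorins of classes 4 to 7, 5 of 12 were higher, 3 were lower and 4 were not called. This balance turned to 4 higher and 6 lower after removal of the length and GC trend, where SEMA4G (-0.19, limma adjusted p = 1.36e-04), SEMA6A (-0.14, adjusted p = 4.38e-04) and SEMA5B (-0.32, adjusted p = 0.00333) were called lower, and it was 6 and 5 without control replicate 1. SEMA6B, a transmembrane ligand of A-type plexins, was at 1.31, 1.62, 1.60 and 1.65 RPKM in control and at 2.60, 2.85, 3.02 and 3.0 RPKM after SB. No treated value came near a control value, and the mean rose from 1.54 ± 0.160 to 2.87 ± 0.193 RPKM (log2 fold change 0.61, limma adjusted p = 1.14e-05, SE 0.055). The fold change was 0.40 after removal of the length and GC trend. SEMA4D, a ligand of PLXNB1 known from immune cells and bone, was at 3.08, 3.55, 3.92 and 3.81 RPKM in control and at 4.93, 5.16, 5.11 and 5.01 RPKM in SB-treated replicates. Its values did not overlap either, with a log2 fold change of 0.40 (limma adjusted p = 1.79e-04, SE 0.057) that was 0.24 after removal of the trend.

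SEMA4C, a PLXNB2 ligand and the most abundant of these 12 genes per length, was at 9.18, 11.5, 12.2 and 11.9 RPKM in control and at 13.5, 13.8, 13.6 and 13.4 RPKM after SB. Control replicate 1 was far below the other controls, and the log2 fold change of 0.26 (limma adjusted p = 0.0114) was 0.18 without it and 0.14 after removal of the trend. SEMA4B and SEMA4F rose as well, with log2 fold changes of 0.28 and 0.21, which were 0.14 and 0.06 after removal of the trend, where SEMA4F lost its call (adjusted p = 0.135). The falls were in SEMA6D, from 1.29 ± 0.0466 to 0.898 ± 0.0514 RPKM, in SEMA4A, from 2.26 ± 0.154 to 1.89 ± 0.101 RPKM, and in SEMA7A, a lipid-anchored semaphorin. SEMA7A was at 1.17, 1.47, 1.38 and 1.57 RPKM in control and at 1.25, 1.14, 1.16 and 1.13 RPKM after SB. The groups overlapped, and the call (log2 fold change -0.14, limma adjusted p = 0.0336) was lost when control replicate 2, 3 or 4 or SB-treated replicate 2, 3 or 4 was left out, with adjusted p between 0.0599 and 0.0913.

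SEMA6C was at 3.95 ± 0.496 and 4.48 ± 0.131 RPKM without a call (log2 fold change 0.15, limma adjusted p = 0.0706), although its groups did not overlap. SEMA4G was at 5.19 ± 0.428 and 4.95 ± 0.204 RPKM (-0.05, adjusted p = 0.390), and 1215 of its exon bases overlap MRPL43 on the other strand. The strand setting of the counting is not given in the sources used here, so reads of such pairs may be shared. SEMA5B was at 0.246 ± 0.0622 and 0.162 ± 0.0125 RPKM (-0.10, adjusted p = 0.0518) and was called lower when the pseudocount was 0.1 in place of 1 (adjusted p = 0.0114). SEMA6A, at 9.55 ± 0.231 and 9.35 ± 0.180 RPKM, and SEMA6A-AS1, at 1.01 ± 0.327 and 0.936 ± 0.201 RPKM, gave -0.03 and -0.05 (adjusted p = 0.466 and 0.734). They overlap by 268 exon bases, and SEMA6A-AS1 had as few as 26 reads in a library.

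Plexins, the semaphorin receptors, had 5 of 7 genes higher and 0 lower in SB-treated cells. Over all genes 33.0% were called higher and 32.6% lower, and counts in families this small were not tested. PLXNA1, the partner of neuropilins in class 3 semaphorin receptors, had the largest change of all 62 members on the log2(RPKM + 1) scale. By the ratio of means SEMA6B (1.86) and PLXNB1 (1.84) were slightly above PLXNA1 (1.83). It was at 9.38, 12.7, 12.3 and 12.5 RPKM in control and at 20.0, 22.8, 22.0 and 21.0 RPKM after SB. Even the lowest treated replicate was well above the highest control, and the mean rose from 11.7 ± 1.57 to 21.5 ± 1.19 RPKM (log2 fold change 0.83, limma adjusted p = 2.68e-05, SE 0.086). Without control replicate 1, which was the lowest, the log2 fold change was 0.73, and after removal of the length and GC trend it was 0.61, smaller in size than the values of NRP1 (-0.73), SEMA3C (0.68) and SEMA3G (-0.63) under that setting.

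PLXNB1, the SEMA4D receptor, was at 0.668, 0.753, 0.776 and 0.905 RPKM in control and at 1.37, 1.39, 1.52 and 1.43 RPKM after SB. The groups did not overlap, and the ratio of means was 1.84. On the log2(RPKM + 1) scale, which compresses low genes, the fold change was 0.45 (limma adjusted p = 2.10e-05, SE 0.045). It was 0.89 by voom on the recovered reads and 0.21 after removal of the trend. PLXNA3, PLXNA2 and PLXND1 rose by log2 fold changes of 0.38, 0.29 and 0.27. With the trend removed these were 0.18, 0.10 and 0.03, and the call for PLXND1 was lost (adjusted p = 0.451).

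PLXNB2, the most abundant plexin per length, was at 20.3, 26.9, 26.5 and 26.1 RPKM in control and at 26.2, 28.9, 28.6 and 27.9 RPKM after SB. Its groups overlapped, and it was not called (log2 fold change 0.17, limma adjusted p = 0.104). PLXNC1, a receptor for SEMA7A, was at 0.915 ± 0.117 and 1.05 ± 0.0579 RPKM (log2 fold change 0.10, adjusted p = 0.0861), and 177 of its exon bases overlap CEP83. PLXNB2 and PLXNC1 turned to -0.07 and -0.01 after removal of the trend, where 4 plexins stayed higher and 0 were lower. Summed over the 7 genes, plexins ranged from 43.3 to 57.4 RPKM in control and from 67.0 to 74.0 RPKM in SB-treated replicates.

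Neuropilins, the co-receptors that bind class 3 semaphorins and also vascular endothelial growth factor, both fell, under all alternatives run. Over all genes 32.6% were called lower. On the log2(RPKM + 1) scale NRP1 had the largest fall of the 62 members, while by the ratio of means SEMA3A fell further (0.551 against 0.568). Its control values were 6.91, 7.27, 7.39 and 6.92 RPKM and its SB-treated values were 4.21, 3.91, 3.94 and 4.10 RPKM. The values within each group were close together and the groups far apart, with a log2 fold change of -0.69 (limma adjusted p = 6.81e-07, SE 0.037). NRP2 was at 4.41, 4.24, 4.34 and 4.39 RPKM in control and at 3.18, 3.03, 3.43 and 3.19 RPKM after SB, again without overlap (log2 fold change -0.35, limma adjusted p = 3.36e-05). Their sum went from 11.5 ± 0.198 to 7.25 ± 0.212 RPKM, while that of the plexins went from 53.2 ± 6.65 to 71.0 ± 3.01 RPKM.

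**Figure D2:**
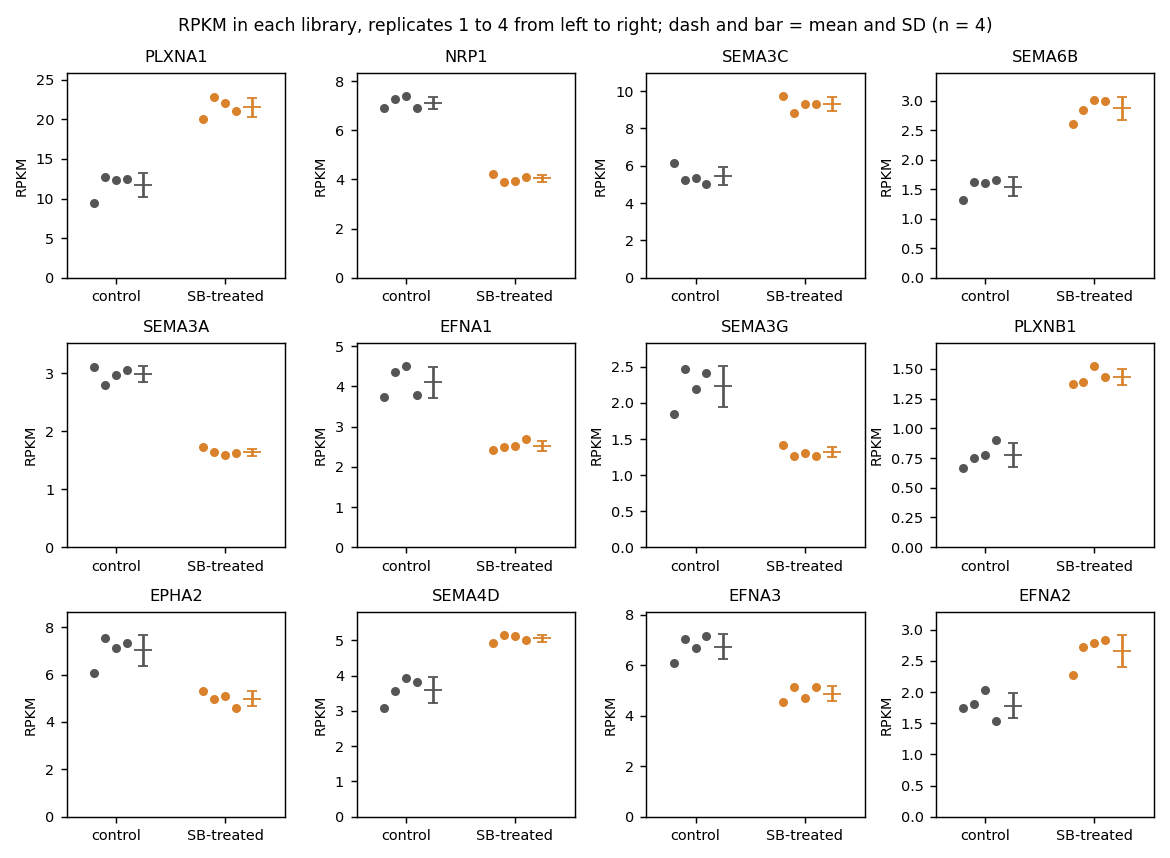
RPKM in each library for the 12 members with the largest absolute log2 fold change among those called, in order of that change, with the mean and SD (n = 4) beside the points and a vertical axis from 0. In every panel the 4 SB-treated values lie on 1 side of the 4 control values, and control replicate 1, the leftmost control point, is the lowest control in 9 of the 12 panels, as in PLXNA1 (9.38 RPKM) and SEMA6B (1.31 RPKM).

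Among the ephrin-A ligands, EFNA1 and EFNA3 were lower, EFNA2 and EFNA4 were higher and EFNA5 was not called. EFNA1, originally found as a cytokine-induced product of endothelial cells and the main partner of EPHA2, was at 3.75, 4.36, 4.52 and 3.78 RPKM in control and at 2.41, 2.49, 2.52 and 2.70 RPKM after SB. All treated values were lower, and the mean fell from 4.10 ± 0.396 to 2.53 ± 0.125 RPKM (log2 fold change -0.53, limma adjusted p = 3.02e-05, SE 0.056). EFNA3 was at 6.08, 7.03, 6.68 and 7.17 RPKM in control and at 4.54, 5.12, 4.69 and 5.13 RPKM after SB. It too fell without overlap (log2 fold change -0.40, limma adjusted p = 1.60e-04, SE 0.055).

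EFNA2, an ephrin studied in the mapping of visual axons, was at 1.74, 1.81, 2.03 and 1.54 RPKM in control and at 2.28, 2.72, 2.79 and 2.83 RPKM after SB. Its values rose in all 4 treated replicates above all controls (log2 fold change 0.39, limma adjusted p = 4.73e-04, SE 0.065). EFNA4 was at 2.53 ± 0.254 and 2.96 ± 0.132 RPKM, and its call (log2 fold change 0.17, limma adjusted p = 0.0199) was lost without SB-treated replicate 2 or 3 (adjusted p = 0.0536 and 0.0561), while after removal of the trend its value was 0.33. EFNA5, the most abundant of the 5 per length, was at 7.59, 8.30, 9.40 and 8.94 RPKM in control and at 8.12, 7.90, 7.91 and 7.66 RPKM after SB. Control replicate 1 was below every treated value and the other controls were above every one (log2 fold change -0.10, adjusted p = 0.146). Without control replicate 1, EFNA5 was called lower (-0.15, adjusted p = 0.00629). EFNA4, EFNA3 and EFNA1 are neighbours on chromosome 1 of hg38, between 155063737 and 155134899, all on the plus strand, and their calls differed in direction.

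Of the ephrin-B ligands, which signal in both directions across a contact, EFNB2 fell and EFNB1 and EFNB3 were not called. EFNB2, the ephrin that marks arterial endothelium, was at 8.86, 8.49, 8.60 and 8.72 RPKM in control and at 7.62, 7.51, 7.45 and 7.52 RPKM after SB. The difference was small and the groups tight (log2 fold change -0.18, limma adjusted p = 5.57e-04, SE 0.031). EFNB1 was at 6.95 ± 0.216 and 6.36 ± 0.533 RPKM (log2 fold change -0.11, adjusted p = 0.0818) and EFNB3 at 4.28 ± 0.428 and 4.69 ± 0.0473 RPKM (0.11, adjusted p = 0.102). Leaving out SB-treated replicate 2 brought EFNB1 past the threshold (-0.15, adjusted p = 0.0285), and leaving out control replicate 2 did so for EFNB3 (0.15, adjusted p = 0.0331).

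EPHA receptors had 3 of 8 genes lower, 2 higher and 3 not called, where 32.6% of all genes were called lower and 33.0% higher. After removal of the length and GC trend 5 were lower and 1 higher, while over all 62 members 28 were lower and 18 higher. EPHA2, a receptor abundant in epithelial and tumour cells, was at 6.08, 7.55, 7.13 and 7.35 RPKM in control and at 5.30, 4.97, 5.08 and 4.57 RPKM after SB. It fell without overlap, as its ligand EFNA1 did (log2 fold change -0.42, limma adjusted p = 2.73e-04, SE 0.063). EPHA4, which binds ephrins of both classes, fell from 6.11 ± 0.410 to 5.11 ± 0.107 RPKM and EPHA3 from 5.36 ± 0.318 to 4.69 ± 0.0910 RPKM (limma adjusted p = 0.00188 and 0.00715). The rises were at low levels. EPHA6 went from 0.694 ± 0.0616 to 1.15 ± 0.0568 RPKM, and EPHA10, which lacks an active kinase, from 0.318 ± 0.0680 to 0.563 ± 0.0657 RPKM (log2 fold change 0.25), with the latter call lost after removal of the length and GC trend (0.01, adjusted p = 0.888).

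EPHA7 had the highest mean per length of the EPHA receptors over all libraries, although in control EPHA2 (7.03 RPKM) was above it (6.43 RPKM). It was at 7.04, 6.32, 6.13 and 6.23 RPKM in control and at 6.64, 6.69, 6.34 and 6.67 RPKM after SB. Control replicate 1 was the highest of the 8 values and the groups overlapped (log2 fold change 0.03, limma adjusted p = 0.560). Without that replicate the value was 0.07 and the adjusted p was 0.0411. EPHA8 was at 2.80 ± 0.164 and 3.12 ± 0.226 RPKM (log2 fold change 0.11, adjusted p = 0.0668), and after removal of the trend it was called lower (-0.11, adjusted p = 0.0290). EPHA5 was at 0.233 ± 0.0368 and 0.203 ± 0.00951 RPKM (-0.04, adjusted p = 0.379).

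Of the EPHB receptors, EPHB2 rose from 2.86 ± 0.137 to 3.63 ± 0.0891 RPKM and EPHB1 fell from 1.11 ± 0.0456 to 0.809 ± 0.0327 RPKM (limma adjusted p = 1.79e-04 and 2.73e-04). EPHB2 is known from the sorting of cells along the gut crypt and EPHB1 from axons at the optic chiasm. After removal of the length and GC trend the rise of EPHB2 was 0.07 in place of 0.26 on the log2 scale. EPHB4, the venous partner of EFNB2, held 77.9% of the summed EPHB level in control and was at 16.4, 19.9, 21.1 and 19.8 RPKM there and at 19.8, 21.2, 20.6 and 21.2 RPKM after SB. The groups overlapped, and no call was made (log2 fold change 0.10, adjusted p = 0.211). Of its exon bases 69 overlap SLC12A9 on the other strand. EPHB3 was at 1.28 ± 0.238 and 1.10 ± 0.120 RPKM (-0.12, adjusted p = 0.201), with a call for a fall without control replicate 1 (-0.19, adjusted p = 0.00475). EPHB6, whose kinase is inactive, had the lowest control mean of all members, at 0.216 ± 0.0340 and 0.234 ± 0.0308 RPKM (0.02, adjusted p = 0.615), although SEMA5B and EPHA5 were lower than it after SB. With the trend removed 1 EPHB receptor was higher and 3 were lower.

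SLIT ligands were higher in all 3 genes, where 33.0% of all genes were called higher. SLIT2, which repels axons and slows cell migration, was the most abundant of the 62 members per length and the source of 97.5% of the SLIT sum in control. It was at 65.2, 63.2, 61.9 and 64.4 RPKM in control and at 76.4, 76.1, 75.5 and 75.8 RPKM after SB. Both groups were narrow and did not overlap, with a log2 fold change of 0.25 (limma adjusted p = 8.77e-05, SE 0.032). SLIT3 rose from 0.467 ± 0.0622 to 0.776 ± 0.0776 RPKM and SLIT1 from 1.14 ± 0.187 to 1.52 ± 0.121 RPKM (limma adjusted p = 4.85e-04 and 0.00920). After removal of the length and GC trend SLIT2 was at 0.15 and SLIT3 at 0.10, both still called, and SLIT1 at 0.02 was not (adjusted p = 0.547). SLIT3 lost its call when the replicate number was added as a block to that removal.

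ROBO1, the receptor with most of the ROBO signal (88.6% of the sum in control), fell while its ligand SLIT2 rose. It was at 29.3, 28.7, 26.1 and 29.1 RPKM in control and at 22.8, 22.4, 23.0 and 22.9 RPKM after SB. The lowest control, replicate 3, was still above every treated value (log2 fold change -0.30, limma adjusted p = 1.67e-04, SE 0.042). ROBO2 was at 0.224 ± 0.0349 and 0.250 ± 0.0191 RPKM (log2 fold change 0.03, adjusted p = 0.441). ROBO3, known from commissural axons that cross the midline, was at 3.39 ± 0.378 and 3.39 ± 0.218 RPKM (0.00, adjusted p = 0.981). After removal of the length and GC trend these receptors were called lower as well, ROBO2 at -0.08 and ROBO3 at -0.19 (adjusted p = 0.0245 and 0.00157).

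Netrins gave 1 gene in each outcome. NTN1, the founding netrin, was at 5.30, 6.63, 6.98 and 6.84 RPKM in control and at 7.17, 7.79, 7.77 and 7.57 RPKM after SB. Its groups did not overlap, and control replicate 1 was low (log2 fold change 0.21, limma adjusted p = 0.0251). The call was lost without SB-treated replicate 2, 3 or 4 (adjusted p = 0.0625, 0.0619 and 0.0532), and the value was -0.01 after removal of the length and GC trend. NTN4, a laminin-like netrin of basement membranes, fell from 1.44 ± 0.111 to 1.14 ± 0.149 RPKM (log2 fold change -0.20, adjusted p = 0.0123). NTNG2, a lipid-anchored netrin, was at 0.418 ± 0.0982 and 0.583 ± 0.149 RPKM (0.16, adjusted p = 0.0780).

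UNC5B, the netrin receptor known from endothelial tips, was at 19.3, 23.5, 20.9 and 23.3 RPKM in control and at 28.0, 28.7, 28.4 and 28.3 RPKM after SB. No values overlapped, and the mean rose from 21.8 ± 2.0 to 28.4 ± 0.294 RPKM (log2 fold change 0.37, limma adjusted p = 3.74e-04, SE 0.059). The value was 0.15 after removal of the trend. UNC5A rose from 1.89 ± 0.255 to 2.51 ± 0.117 RPKM and UNC5C fell from 2.22 ± 0.108 to 1.63 ± 0.0959 RPKM (limma adjusted p = 0.00269 and 1.70e-04), with UNC5A at 0.12 after removal of the trend against 0.28 before. For each of the 12 members with the largest changes, and for SLIT2, ROBO1, EFNB2, SEMA4C, NTN1 and UNC5B, the exact permutation test of the single gene gave a two-sided p = 0.0286, the smallest that 4 against 4 can give. Groups that are fully apart always give this value, so it adds nothing to the lack of overlap, which 61.5% of all genes showed.

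**Figure D3:**
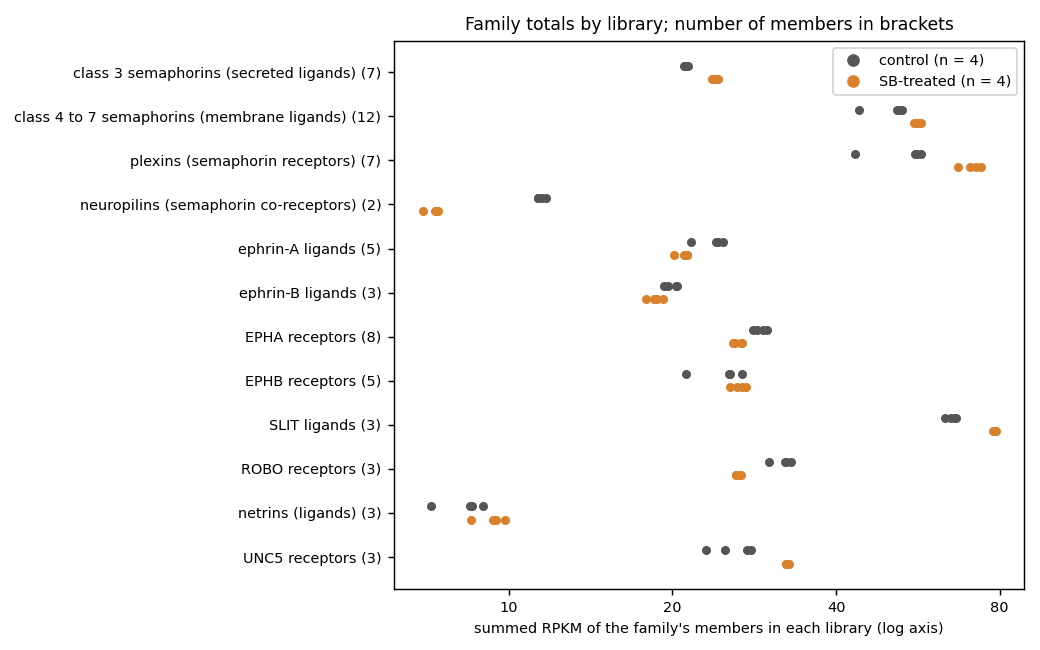
Summed RPKM of each family in each of the 8 libraries on a log axis, control in grey and SB-treated in orange, with the number of member genes in brackets. The plexin sum lies at 43.3 to 57.4 RPKM in control and 67.0 to 74.0 RPKM after SB, the neuropilin sum at 11.3 to 11.7 and 6.94 to 7.39 RPKM, and the lowest control point in plexins and membrane semaphorins is control replicate 1.

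In level, the members spanned a wide range. Control means ran from 0.216 RPKM for EPHB6 to 63.7 RPKM for SLIT2, with a median of 3.45 RPKM against 8.30 RPKM over all genes, and 10 members were under 1 RPKM. In control the order from the top was SLIT2, ROBO1 at 28.3 ± 1.48, PLXNB2 at 24.9 ± 3.13, UNC5B at 21.8 ± 2.0 and EPHB4 at 19.3 ± 2.05 RPKM. SLIT2 stood clear of the others in every control replicate, while from ROBO1 down the range of each overlapped with that of the next. After SB the order was SLIT2, UNC5B, PLXNB2, ROBO1 and PLXNA1, with UNC5B at 28.0 to 28.7 RPKM and PLXNB2 at 26.2 to 28.9 RPKM overlapping. PLXNA1 at 20.0 to 22.8 RPKM overlapped with ROBO1 and with EPHB4, which was at 19.8 to 21.2 RPKM. Between 26 and 22575 reads lay behind each member in each library, so that 0 members had fewer than 10 reads anywhere.

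The 12 members with the largest changes lie on these positions of hg38 by GENCODE release 44. On chromosome 1 are EPHA2 (16124337 to 16156069, minus strand), EFNA3 (155078837 to 155087538, plus) and EFNA1 (155127876 to 155134899, plus). On chromosome 3 are PLXNB1 (48403854 to 48430086, minus), SEMA3G (52433035 to 52445103, minus) and PLXNA1 (126982693 to 127037389, plus). On chromosome 7 are SEMA3C (80742538 to 80922359, minus) and SEMA3A (83955777 to 84492724, minus). NRP1 lies on chromosome 10 (33177492 to 33336262, minus), SEMA4D on chromosome 9 (89360787 to 89498130, minus), and EFNA2 (1285873 to 1301431, plus) and SEMA6B (4542593 to 4581776, minus) on chromosome 19. None of the 12 shares exon bases with another gene of the table. All are protein-coding.

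Other ligands and receptors of guidance, from a list written by role, had a row for 26 of 33 genes, and DCC, the attractive netrin receptor, was among those without a row. Of the 26, 14 were higher, 4 were lower and 8 were not called, with a median log2 fold change of 0.11. The shares of 53.8% and 15.4% compare with 33.0% and 32.6% over all genes. They moved most with removal of the length and GC trend. The counts higher and lower were 9 and 7 after removal of the length and GC trend (median 0.01), 14 and 6 without control replicate 1, and 15 and 2 without TMM factors. NEO1, NFASC, NCAM1, PTPRD and LRIG1 lost their calls with the trend removed. L1CAM, a cell adhesion molecule that joins NRP1 in the SEMA3A receptor, rose from 1.29 ± 0.237 to 3.86 ± 0.163 RPKM (log2 fold change 1.09, limma adjusted p = 1.54e-06). FLRT3 rose from 7.81 ± 0.599 to 13.9 ± 0.267 RPKM and FLRT2 from 3.24 ± 0.0861 to 5.07 ± 0.227 RPKM, both adhesion proteins that bind UNC5 receptors. Those that fell most were SDC2, a heparan sulfate carrier, from 11.4 ± 0.997 to 8.68 ± 0.303 RPKM, WNT5A, a secreted cue of the Wnt family, from 4.11 ± 0.167 to 3.15 ± 0.162 RPKM, and BOC, a Hedgehog co-receptor, from 3.33 ± 0.298 to 2.80 ± 0.111 RPKM.

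Effectors inside the cell, such as small GTPases, their exchange factors, collapsin response mediators and kinases, had a row for 65 of 66 genes. Here 22 were higher, 21 lower and 22 not called, with a median log2 fold change of -0.01. These shares, 33.8% and 32.3%, are close to the 33.0% and 32.6% over all genes. The counts were 19 and 29 after removal of the trend (median -0.06), 25 and 24 without control replicate 1, and 31 and 16 without TMM factors. CRMP1, which carries the SEMA3A signal to the cytoskeleton, rose from 2.32 ± 0.207 to 4.03 ± 0.161 RPKM (log2 fold change 0.60, limma adjusted p = 6.56e-06). TRIO, an exchange factor used by netrin receptors, rose from 10.4 ± 0.865 to 15.7 ± 0.0762 RPKM, and MICAL3 from 5.44 ± 0.284 to 7.96 ± 0.274 RPKM. RND3, an atypical small GTPase, fell from 21.9 ± 2.11 to 13.2 ± 0.553 RPKM (log2 fold change -0.69, limma adjusted p = 1.11e-05). CDK5, a kinase that phosphorylates collapsin response mediators, fell from 23.1 ± 2.31 to 14.9 ± 0.726 RPKM and the adaptor NCK1 from 12.2 ± 1.58 to 8.29 ± 0.280 RPKM.

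Genes that process these ligands and receptors, that is proprotein convertases, ADAM proteases, gamma-secretase subunits and lipid-anchor enzymes, had a row for all 14 listed. Of these, 5 were higher, 6 lower and 3 not called, with a median log2 fold change of -0.07, which was 0.04 after removal of the trend and 0.03 without TMM factors. The shares of 35.7% and 42.9% stand beside 33.0% and 32.6% over all genes. The counts were again 5 and 6 after removal of the trend, 5 and 8 without control replicate 1, and 5 and 3 without TMM factors. FURIN, a convertase that cleaves class 3 semaphorins, rose from 13.6 ± 1.31 to 21.3 ± 0.884 RPKM (log2 fold change 0.62, limma adjusted p = 2.49e-05), and PCSK6 and PCSK7 rose by 0.41 and 0.34. GPAA1, a subunit of the enzyme that attaches lipid anchors, fell from 41.4 ± 7.59 to 28.9 ± 1.36 RPKM (-0.48, adjusted p = 0.00540), and PCSK5 and PIGL each fell by 0.32 on the log2 scale.

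Some marker genes of cell types moved with the treatment beside these changes, while the fibroblast and leukocyte sums overlapped between the groups. Of 14 neuronal markers 8 have a row, 3 of them higher and 3 lower, where 33.0% and 32.6% of all genes were called so. Their sum ranged from 87.1 to 96.6 RPKM in control and from 56.2 to 58.3 RPKM after SB. Most of that sum was NEFM, at 38.0 ± 2.47 and 17.7 ± 0.645 RPKM, and NEFL, at 42.2 ± 1.90 and 27.1 ± 0.680 RPKM. GAP43 was also lower (log2 fold change -0.19), and TUBB3 (0.43), SYN1 (0.30) and MAP2 (0.20) were higher. RBFOX3 and SYT1 were not called, and DCX, STMN2, SNAP25, ELAVL3, ELAVL4 and NEFH have no row. The 5 hepatocyte markers with a row were all higher (4 of 5 after removal of the trend), with sums of 3.92 to 4.56 and 7.21 to 7.68 RPKM. Of 8 endothelial markers only KDR has a row, at 0.314 ± 0.0358 and 0.145 ± 0.0343 RPKM, and PECAM1, CDH5 and VWF have none. Of 8 fibroblast markers 4 have a row, with sums of 6.63 to 8.97 and 6.62 to 6.98 RPKM, and of 6 leukocyte markers 3, with sums of 3.28 to 3.77 and 3.35 to 4.14 RPKM. Their part in the changes of the guidance genes was not tested.

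**Figure D4:**
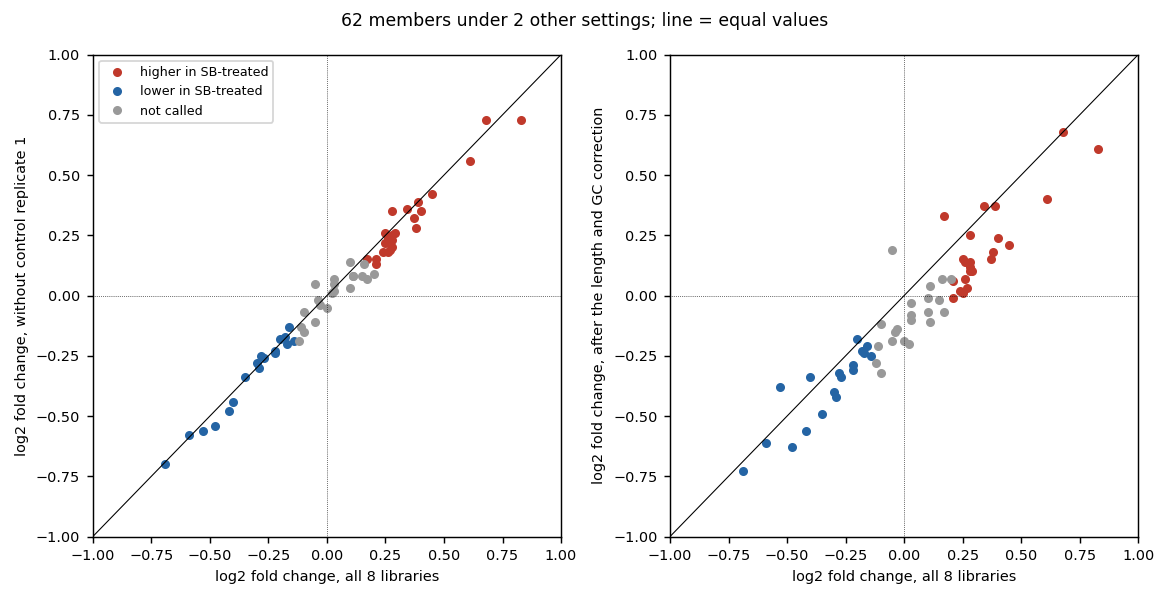
Log2 fold change of the 62 members over all 8 libraries (horizontal axis) against the value without control replicate 1 (left) and after removal of each library's length and GC trend (right), coloured by the call over all libraries. Points on the line are equal under both. In the right panel most points lie below the line, as PLXNB1 does at 0.45 and 0.21, and SEMA3C lies on it at 0.68 in both.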

How the data were processed

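Total RNA of 8 samples was sequenced by the authors as 50-base single reads from stranded libraries. Per the submitters' processing notes and the methods, reads were mapped to hg38 with TopHat2 2.1.0 and summarized per gene with featureCounts 1.5.0, genes had to exceed 1 CPM in 2 or more samples, and edgeR 3.16.5 scaled the library sizes by TMM. The authors deposited RPKM values for 14526 genes and 8 libraries. Columns of the deposited table with the authors' own fold changes, mean CPM, p-values and FDR were not used, and 0 columns with values of single samples were left unused.

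Groups were taken from the sample titles. All 14526 genes were fitted with lmFit and eBayes in limma 3.58.1 (R 4.3.3) on log2(RPKM + 1), 4 SB-treated against 4 control samples, without a further filter, with Benjamini-Hochberg adjustment and calls at an adjusted p below 0.05. The study's count model was not the main test because the deposited unit is RPKM. A pseudocount of 1 understates changes of genes with low values. Whole reads were recovered from the RPKM steps (100% of genes, within 0.05 of a whole number) and used for voom, for depth and for library sizes. The scripts were tested on simulated data. The deviations of same-numbered samples from their group means had correlations of 0.38, 0.327, 0.173 and -0.16 for replicates 1 to 4. The numbers were not taken as pairs in the main fit.

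The members and gene lists were chosen with earlier results of these data known. Named are the 12 called members with the largest absolute log2 fold change, the most abundant member of each family, every member not called, every member whose call was lost without 1 library, and in each list the 3 largest rises and falls. Other members are named where a family is described. Alternatives were the replicate number as a block, median-of-ratios size factors, no TMM factors, a pseudocount of 0.1, a minimum of 10 reads per sample, an intensity trend in eBayes, voom, and leaving out each library. Removal of each library's trend with length and GC content (alone or with the block) and voom without control replicate 1 were chosen after seeing the data. A GC value was found for 91.5% of the genes. Positions are from GENCODE release 44, and promoters from RefSeq on GRCh38.p14, using the start listed at the top where several are given. ChIP-seq data were not analysed here.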

Additional observations from a re-analysis of the deposited data

Results flagged for a closer look

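In 15 of 124 groups of 4 values (62 members in 2 conditions), 1 sample lay far from the other 3, with a gap to its nearest neighbour above Dixon's critical share of the whole range of log2(RPKM + 1). Chance passes about 1 in 20 such groups, or 6.20 here, and 10 of the 15 were control replicate 1. It was the lowest control for PLXND1 (0.939), SLIT1 (0.915), PLXNA1 (0.909), SEMA4G (0.902), PLXNB2 (0.891), SEMA4F (0.872), SEMA6B (0.854) and SEMA3F (0.833), and the highest for PLXNC1 (0.902) and SEMA3D (0.871). PLXND1 was at 6.28 RPKM in this library and at 8.14 to 8.28 RPKM in the other controls. SEMA3D was at 4.19 RPKM there, close to the SB-treated range of 4.33 to 4.59 RPKM, and at 3.22 to 3.33 RPKM in the other controls.

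The other 5 were in different libraries. Control replicate 3 was the lowest control for ROBO1 (0.836), at 26.1 RPKM against 28.7 to 29.3 RPKM. Control replicate 2 was the highest control for EPHB6 (0.830). SB-treated replicate 2 was the highest treated value for EPHA3 (0.886), SB-treated replicate 1 for SEMA6A-AS1 (0.963), and SB-treated replicate 3 was the lowest for EPHA7 (0.838).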

How the results depend on the processing

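When each library was left out in turn, between 21 and 26 members were higher and between 17 and 22 were lower. The count of lower members moved to 28 after removal of the length and GC trend and to 29 with the replicate block added to it, and the cause was not tested. The count of higher members was 18 and 16 under these settings. With the block added to the removal, EPHB2, SLIT3 and UNC5A also lost their calls and SEMA6A-AS1 was called higher. Under the replicate block alone, 28 members were higher and 18 lower. Correlations of the samples' deviations from their group means cannot decide whether the numbers pair the samples, because control replicate 1 entered the control mean. Control replicates 1 and 2 correlated best with their own number (0.38 and 0.327). Control replicates 3 and 4 did so with SB-treated replicate 2 (0.288 and 0.224). With the block alone, EPHA8, SEMA6C, PLXNB2, SEMA3F, NTNG2 and EFNB1 were called and SEMA7A was not.

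After removal of the length and GC trend, with and without the block, these members changed sign: EPHA8 (-0.11), SEMA6C (-0.02), ROBO3 (-0.19), PLXNC1 (-0.01), NTN1 (-0.01), PLXNB2 (-0.07), SEMA3B (-0.10), ROBO2 (-0.08), SEMA6A-AS1 (0.19), EPHA7 (-0.03), EPHB4 (-0.07) and EPHB6 (-0.20). Of these only NTN1 had been called. Without TMM factors SEMA4G (0.03), SEMA6A (0.07) and SEMA6A-AS1 (0.01) changed sign, and with median-of-ratios factors ROBO3 (-0.00). Over the libraries left out in turn ROBO3 ranged from -0.05 to 0.04 and SEMA6A-AS1 from -0.13 to 0.05. By voom without control replicate 1 they were at -0.07 and 0.09, and EFNA4 lost its call. The intensity trend in eBayes, the pseudocount of 0.1 and voom on all libraries each changed 1 call, that of SEMA5B, and the minimum of 10 reads changed 0. Some low members rest on few reads, such as SEMA6A-AS1 (as few as 26 in a library) and SEMA5B (34). PLXNC1, at 0.915 RPKM in control, had 277 reads there on average. Calls near the threshold rest on 4 samples a group.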
